A study of Oryzias latipes with 8 samples.

Results

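The genes *nr1d4a* (ENSORLG00000007837) and *nr1d4b* (ENSORLG00000015399) are paralogs of the Rev-erb type of nuclear receptor, and they are 2 of the 18064 genes counted in axial tissue of medaka larvae. Both were selected by the study from its own comparison of TPhP- and DMSO-treated larvae, as genes with lower counts, and both were read here by the Ensembl identifiers that it pairs with their names. The study gives both the full name of NR1D1, and their symbols are used here. Their difference between the treatments is therefore what chose them, and it is given below as a description. Calls made by tests across all genes are given beside it only as counts. Both genes passed the filter on low counts, as did 15893 genes in all.

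Rev-erb receptors (the NR1D group) bind DNA at sites shared with the ROR receptors and repress transcription by recruiting corepressors. They bind heme as a ligand. In mammals they form an arm of the circadian clock, in which they repress the clock activator Bmal1, and they are also known for roles in lipid metabolism and in the mitochondrial content of muscle. Transcripts of this receptor group cycle over the day in mammals and in zebrafish, and the hour at which each pool of medaka larvae was collected is not given in the sources used here.

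The RNA came from inbred orange-red Hd-dR medaka at 14 dpf. The TPhP libraries (n = 4) were made from larvae kept in 1.0 µM triphenyl phosphate (TPhP, an organophosphate flame retardant) from 4 to 6 hpf onward, and the DMSO libraries (n = 4) from larvae kept in the 0.1% dimethyl sulfoxide vehicle over the same period. Each library was a pool of 15 to 20 larvae, from which trunk tissue had been freed by passage through a needle, trimmed under a microscope and frozen. The 7 genes used here as markers of the axial skeleton were all counted in every library, between 3.42 CPM (*runx2*) and 2232 CPM (*col1a*). The tissue is a mixture, and in such bulk RNA fewer cells of a type and less RNA per cell cannot be told apart. Library totals were 46561277 to 51501685 counts with TPhP and 48691227 to 50615770 with DMSO. The totals were scaled by TMM factors, which set the typical gene to the same level in every library. These factors did not overlap between the treatments, at 1.02 to 1.21 with TPhP and 0.847 to 1.00 with DMSO. CPM below are counts per 1000000 of the TMM-scaled library size.

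*Nr1d4a* transcripts were scarce in 3 of the 4 TPhP libraries and not in the other. The TPhP libraries, replicates 1 to 4, had 1199, 115, 144 and 110 counts of *nr1d4a*, against 971, 966, 867 and 650 counts in DMSO replicates 1 to 4. Scaled to library size, these were 23.3, 2.03, 2.64 and 2.06 CPM with TPhP, against 23.5, 21.7, 19.3 and 12.9 CPM with DMSO. TPhP replicates 2 to 4 lay under every DMSO library, and TPhP replicate 1 lay beside the highest of them. The lowest DMSO library had 4.89 times the CPM of the highest of TPhP replicates 2 to 4, and TPhP replicate 1 had 8.80 times. The counting error was small beside these gaps. The exact 95% Poisson interval of the scarcest library, TPhP replicate 2, was 1.68 to 2.44 CPM, and that of the lowest DMSO library, replicate 4, was 11.9 to 14.0 CPM. These intervals cover counting error only, and not the spread between pools. The reads carried no molecular identifiers, so copies made in amplification could not be told from separate molecules.

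*Nr1d4b*, the more heavily counted paralog, had the same arrangement of libraries with a smaller gap. It had 3503, 861, 712 and 692 counts in TPhP replicates 1 to 4, against 3288, 2929, 2901 and 1826 counts in DMSO replicates 1 to 4. In CPM these were 68.0, 15.2, 13.1 and 12.9 with TPhP, against 79.7, 65.9, 64.6 and 36.3 with DMSO. TPhP replicates 2 to 4 were again under every DMSO library, by a gap of 2.38 times between the nearest libraries, and TPhP replicate 1 was within the DMSO range. Gene lengths were not used here, so the larger counts of *nr1d4b* do not show a higher level than that of *nr1d4a*.

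**Figure D1:**
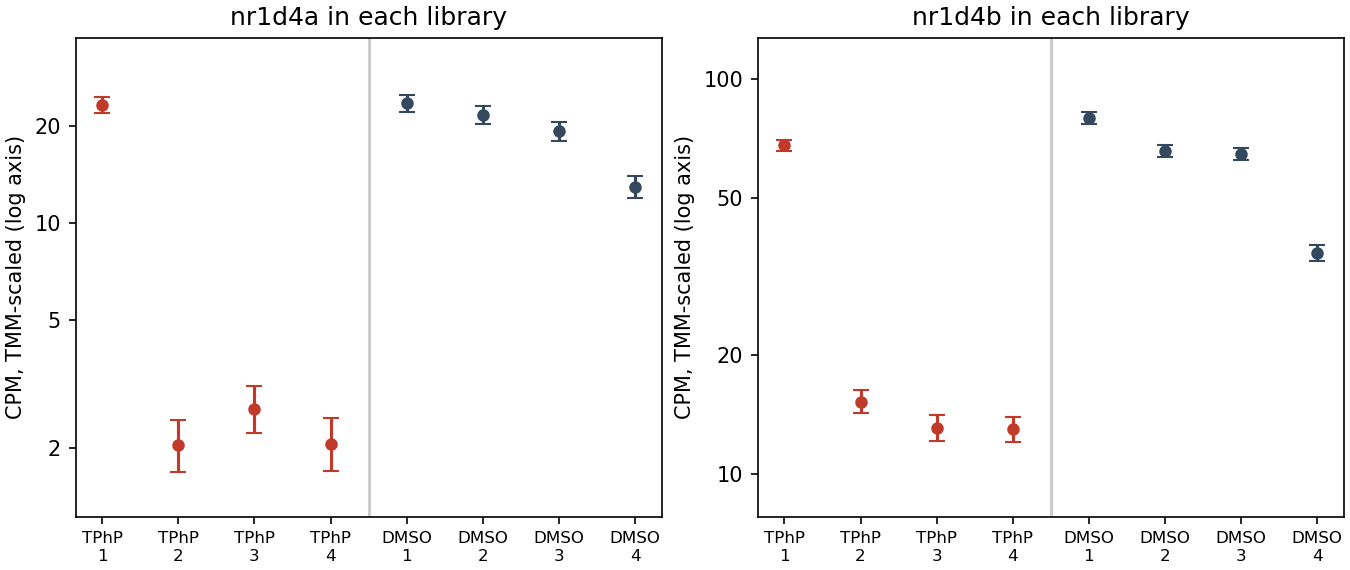
CPM of *nr1d4a* (left) and *nr1d4b* (right) in each TPhP and DMSO library on a log axis, with bars for the exact 95% Poisson interval of the count. TPhP replicates 2 to 4 lie at 2.03 to 2.64 CPM of *nr1d4a* and 12.9 to 15.2 CPM of *nr1d4b*, under every DMSO library, and TPhP replicate 1 lies at 23.3 and 68.0 CPM, near the top of the DMSO libraries.

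The means by treatment lie between these libraries. *Nr1d4a* averaged 7.50 ± 10.5 CPM with TPhP and 19.4 ± 4.64 CPM with DMSO (SD, n = 4 each), and *nr1d4b* averaged 27.3 ± 27.1 CPM with TPhP and 61.6 ± 18.2 CPM with DMSO (SD, n = 4 each). With TPhP the SD was 140% of the mean for *nr1d4a* and 99.4% for *nr1d4b*, and the TPhP mean of each gene fell in the gap between replicate 1 and the other TPhP libraries. In log2 CPM (with a prior count of 2 added before the logarithm), the SD of *nr1d4a* was 1.69 with TPhP and 0.38 with DMSO, and that of *nr1d4b* was 1.16 with TPhP and 0.49 with DMSO. The median gene had an SD of 0.28 with TPhP and 0.26 with DMSO. Among the 15893 genes, 0.831% varied as much as *nr1d4a* or more across the TPhP libraries, and 2.90% as much as *nr1d4b*. Across the DMSO libraries the paralogs were less unusual, since 30.7% of genes varied as much as *nr1d4a* and 21.3% as much as *nr1d4b*.

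Over all 8 libraries, the log2 fold change of TPhP over DMSO in edgeR's fit was −1.37 for *nr1d4a* (standard error 0.76) and −1.17 for *nr1d4b* (standard error 0.55). Without TPhP replicate 1 these were −3.11 (standard error 0.24) and −2.17 (standard error 0.25). Leaving out any other single library gave −1.53 to −1.06 for *nr1d4a* and −1.37 to −0.94 for *nr1d4b*. The call rule was that of the study. A gene was called where its fold change exceeded 1.5 and its p, adjusted by the Benjamini-Hochberg procedure, was below 0.05. With all 8 libraries edgeR's quasi-likelihood test called 0 of the 2 paralogs lower, where it called 0% of all genes lower. DESeq2 gave *nr1d4a* no adjusted p, so that gene could not be called. It did not call *nr1d4b* lower, where it called 1.03% of the genes with an adjusted p lower. Without TPhP replicate 1, edgeR called both lower, where it called 4.81% of all genes lower. As the contrast chose the genes, nothing is read from these counts.

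**Figure D2:**
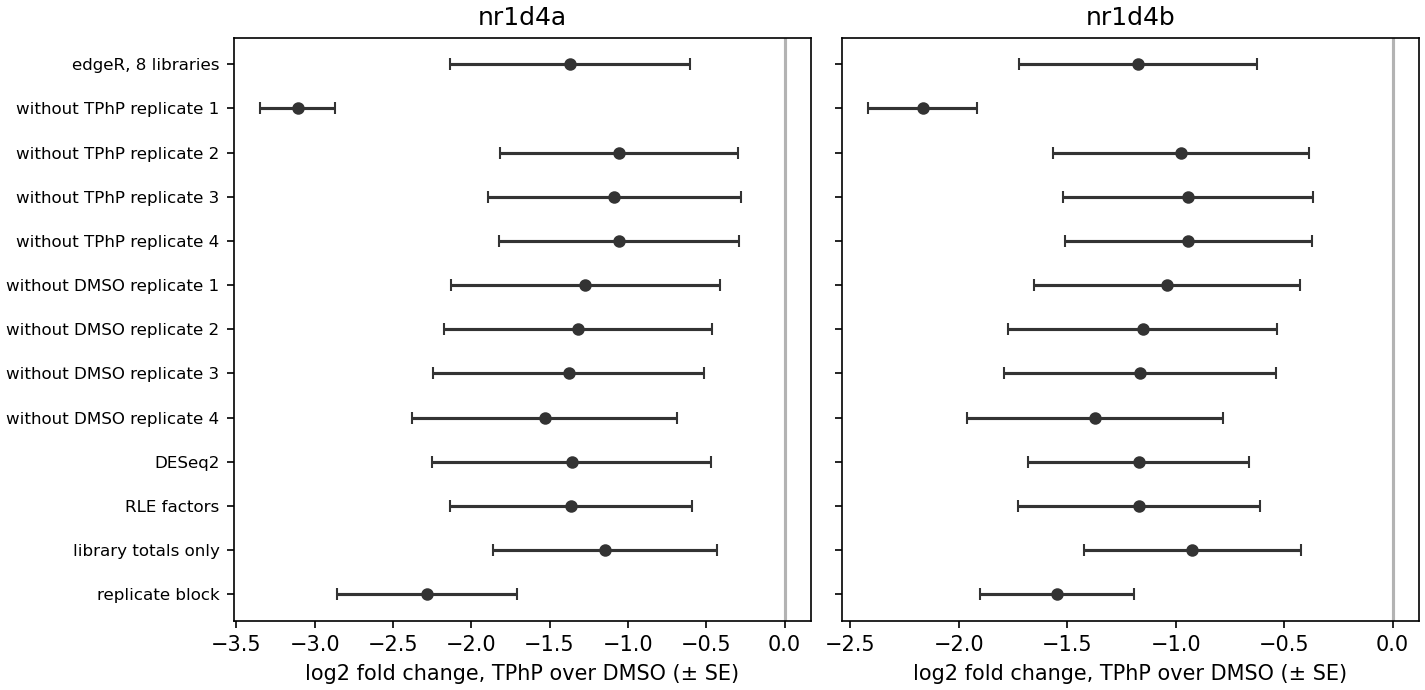
Log2 fold change of TPhP over DMSO (points, with bars of ± 1 standard error) for *nr1d4a* (left) and *nr1d4b* (right), under edgeR with all 8 libraries and with each library left out, and with all 8 libraries under DESeq2, RLE factors, library totals only and a replicate block. All plotted values are below 0, and of these the ones without TPhP replicate 1, at −3.11 and −2.17, lie farthest from it.

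By the same reading, 0 of the 2 paralogs had every TPhP library under every DMSO library, which held for 3.57% of genes. Without TPhP replicate 1 both did, as did 13.3% of genes. The arrangement of the paralogs was shared by many genes. With all 8 libraries on 1 scale, TPhP replicates 2 to 4 lay under every DMSO library in 2113 genes. In 964 of these, 45.6%, TPhP replicate 1 was within the DMSO range, as for *nr1d4a* and *nr1d4b*. These 964 were 6.07% of the 15893 genes. In 582 of the 2113 genes TPhP replicate 1 was above every DMSO library and in 567 under every one. In the other direction, TPhP replicates 2 to 4 lay above every DMSO library in 2304 genes. TPhP replicate 1 was within the DMSO range in 1282 of those. These counts were chosen after the values had been seen.

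The place of TPhP replicate 1 depended on how the libraries were scaled. Scaled by library totals alone, it had 23.7 CPM of *nr1d4a*, against 12.9 to 19.9 CPM in the DMSO libraries, and 69.2 CPM of *nr1d4b*, against 36.4 to 67.5 CPM, so that it was above every DMSO library for both genes. The same was seen per 1000 counts of *rpl13a*, a ribosomal protein gene that served the study as its qPCR reference. TPhP replicate 1 then had 10.3 counts of *nr1d4a*, against 5.73 to 7.20 with DMSO, and 30.0 counts of *nr1d4b*, against 16.1 to 24.4 with DMSO. *Rpl13a* itself had 2103 to 2285 CPM with TPhP and 2256 to 3270 CPM with DMSO, and the part of this in the ratios was not tested. With RLE factors, TPhP replicate 1 was above every DMSO library for *nr1d4a* and within their range for *nr1d4b*. TPhP replicates 2 to 4 were under every DMSO library for both genes under each of these scalings.

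The paralogs shared their low and high libraries, and part of the order within these. In CPM, the libraries outside TPhP replicates 2 to 4 stood in the same order for both. It ran from DMSO replicate 1 as the highest through TPhP replicate 1 and DMSO replicates 2 and 3 to DMSO replicate 4 as the lowest. The intervals of neighbours in this order overlapped for *nr1d4a* between DMSO replicate 1 and TPhP replicate 1, between TPhP replicate 1 and DMSO replicate 2, and between DMSO replicates 2 and 3. For *nr1d4b* they overlapped between TPhP replicate 1 and DMSO replicate 2 and between DMSO replicates 2 and 3. DMSO replicate 4 stood clear of the other DMSO libraries in both genes. Within TPhP replicates 2 to 4 the order was not shared. *Nr1d4a* was highest in replicate 3 (2.64 CPM) and lowest in replicate 2 (2.03 CPM), with overlapping intervals. *Nr1d4b* was highest in replicate 2, whose interval of 14.2 to 16.3 CPM was clear of that of replicate 3, 12.1 to 14.1 CPM. The shared order depended on the scaling. Per 1000 counts of *rpl13a*, TPhP replicate 1 was the highest for both genes. DMSO replicate 2 was then above replicate 3 for *nr1d4a* (6.87 against 6.72) and under it for *nr1d4b* (20.8 against 22.5). The Pearson correlation of the paralogs in log2 CPM was 0.985 across the 8 libraries. This value describes libraries that fall into a low and a high cluster, and it has no p. Of the 15892 other genes, *nr1d4b* was the 14th most like *nr1d4a* by this measure, and *nr1d4a* was the 5th most like *nr1d4b*. Both paralogs were chosen as lower with TPhP in these same libraries, so their high places follow in part from that choice.

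The difference from the DMSO libraries in TPhP replicates 2 to 4 was larger for *nr1d4a* than for *nr1d4b*. Relative to the DMSO mean, *nr1d4a* lay at −3.19, −2.82 and −3.17 log2 units in TPhP replicates 2 to 4, and *nr1d4b* at −1.96, −2.18 and −2.19. In TPhP replicate 1 they lay at 0.30 and 0.20. The same difference can be read from raw counts within a library, where no scaling enters. *Nr1d4a* made up 25.5%, 11.8%, 16.8% and 13.7% of the summed counts of both genes in TPhP replicates 1 to 4, against 22.8%, 24.8%, 23.0% and 26.3% in DMSO replicates 1 to 4. TPhP replicate 1 was within the DMSO range of this share, and the other 3 TPhP libraries were all under it. The highest of those, TPhP replicate 3, had an exact 95% binomial interval of 14.4% to 19.5%, and the DMSO library with the lowest share, replicate 1, had 21.5% to 24.1%. The share averaged 17.0 ± 6.06% with TPhP and 24.2 ± 1.63% with DMSO (SD, n = 4 each). The mean log2 ratio of *nr1d4a* to *nr1d4b* counts was −2.35 ± 0.59 with TPhP and −1.65 ± 0.13 with DMSO (SD, n = 4 each), a difference of −0.70. Without TPhP replicate 1 the difference was −0.97.

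**Figure D3:**
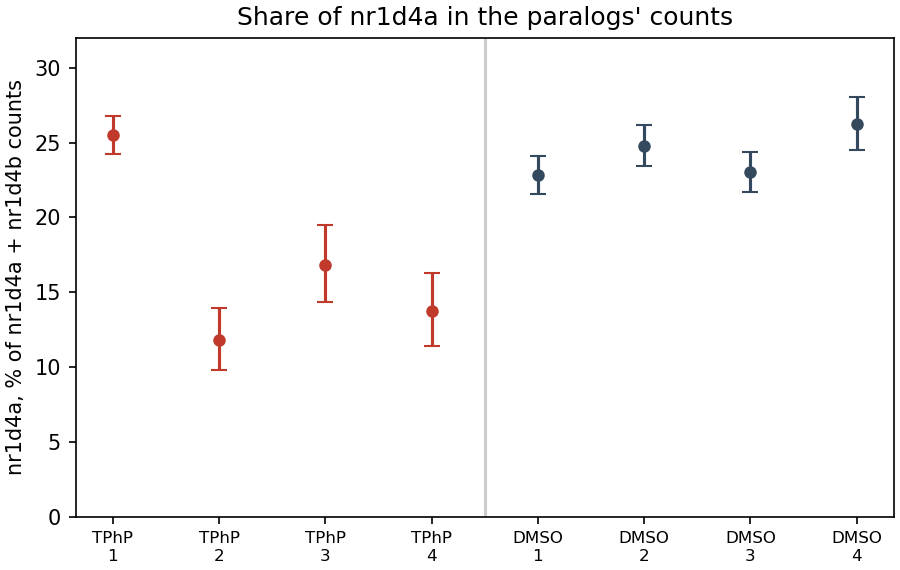
Counts of *nr1d4a* as a percentage of the summed counts of *nr1d4a* and *nr1d4b* in each TPhP and DMSO library, with exact 95% binomial intervals. TPhP replicates 2 to 4 lie at 11.8% to 16.8%, and TPhP replicate 1 at 25.5% lies among the DMSO libraries at 22.8% to 26.3%.

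Ratios of this kind carry a limit of the counting. Only uniquely mapped reads were counted, so reads shared by both paralogs could have been lost from either, to an extent that was not measured here. The strand option and the annotation release of the counting are not given in the sources used here, and counts of genes that overlap the paralogs could be mixed with theirs.

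The study lists *nr1d4a* and *nr1d4b* together with transcripts of mitochondrial DNA, so each library's *nr1d4a* and *nr1d4b* were set beside the mean log2 CPM of *nd1* and *nd2* (complex I), *cox2* (complex IV) and *atp6* (ATP synthase). The mitochondrial genes were chosen from the same contrast too. Their mean was 8.01, 0.48, 0.34 and 0.63 in TPhP replicates 1 to 4, against 9.14, 9.61, 8.48 and 9.44 in DMSO replicates 1 to 4. The 3 libraries with few *nr1d4a* and *nr1d4b* transcripts were thus the same 3 in which the mitochondrial mean was near 0, and the sizes differed. The mitochondrial mean lay at −8.69, −8.83 and −8.54 log2 units from the DMSO mean in TPhP replicates 2 to 4, where neither paralog lay beyond −3.19. This size was not that of every mitochondrial gene that the study lists. Outside the mean, *cox1* (complex IV) lay at −2.74, −2.67 and −2.50 in these libraries, a smaller difference than that of *nr1d4a*. *Nd3* lay at −8.62, −7.63 and −6.72, on 2, 6 and 13 counts, and *atp8* had 0 counts in each.

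TPhP replicate 1 was placed differently by the paralogs and the mitochondrial transcripts. Its mitochondrial mean lay 1.16 log2 units under the DMSO mean, at 8.01, and under the lowest DMSO library at 8.48, whereas both paralogs in it were above their DMSO means. For *nd1*, *nd2*, *cox2* and *atp6* each, TPhP replicate 1 was under every DMSO library in CPM, and also with RLE factors and with library totals alone. Per 1000 counts of *rpl13a* this did not hold for *nd2*, at 43.6 counts in TPhP replicate 1 against 41.5 to 112 with DMSO, and *nd1* lay just under the DMSO libraries, at 64.5 against 64.8 to 166. As an example in CPM, *cox2* had 1309, 6.70, 5.56 and 6.19 CPM in TPhP replicates 1 to 4, and 1721 to 4058 CPM in the DMSO libraries.

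Within the DMSO libraries the paralogs did not follow the mitochondrial mean. DMSO replicate 4 was the lowest DMSO library for both paralogs, at 3.70 log2 CPM of *nr1d4a* and 5.18 of *nr1d4b*, while its mitochondrial mean, 9.44, was the second highest. DMSO replicate 3 had the lowest mitochondrial mean, 8.48, and its *nr1d4a* of 4.27 and *nr1d4b* of 6.01 were close to their DMSO means of 4.24 and 5.89. The range over the DMSO libraries was 0.86 log2 units for *nr1d4a*, 1.13 for *nr1d4b* and 1.13 for the mitochondrial mean. As the libraries fall into 2 separate clusters, with 5 libraries in the larger, the relation of the paralogs to the mitochondrial mean was not tested.

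**Figure D4:**
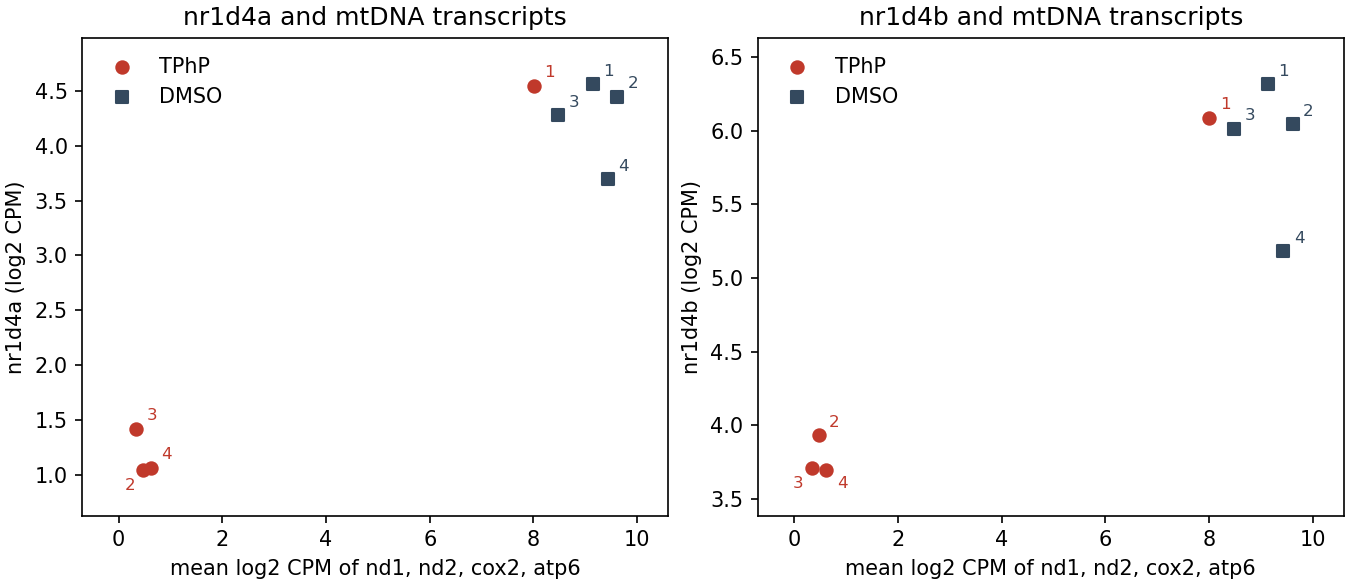
Log2 CPM of *nr1d4a* (left) and *nr1d4b* (right) against the mean log2 CPM of *nd1*, *nd2*, *cox2* and *atp6*, with a point per library (circles TPhP, squares DMSO, labelled by replicate number). TPhP replicates 2 to 4 sit at a mitochondrial mean of 0.34 to 0.63 with low *nr1d4a* and *nr1d4b*, TPhP replicate 1 at 8.01 sits beside the DMSO libraries at 8.48 to 9.61, and DMSO replicate 4 is low for both paralogs but not for the mitochondrial mean.

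Genes with profiles like those of the paralogs were looked for among all 15893 genes, by the Pearson correlation of log2 CPM over the 8 libraries, as a description. The gene most like *nr1d4b*, and the second most like *nr1d4a*, was ENSORLG00000011412 (r = 0.994 and 0.993). It had 69.3, 20.3, 18.0 and 17.5 CPM in TPhP replicates 1 to 4, against 74.6, 65.2, 60.5 and 48.5 CPM in DMSO replicates 1 to 4. The gene most like *nr1d4a* was ENSORLG00000015204 (r = 0.996), whose libraries differed less, with 318, 188, 210 and 186 CPM with TPhP, against 325, 316, 313 and 292 CPM with DMSO. At the opposite end stood ENSORLG00000009655 for *nr1d4a* (r = −0.997). It had 2.17, 39.0, 29.6 and 36.4 CPM in TPhP replicates 1 to 4, against 2.47, 2.99, 3.87 and 5.01 CPM in DMSO replicates 1 to 4. For *nr1d4b* it was ENSORLG00000015861 (r = −0.994), with 47.9, 305, 272 and 280 CPM with TPhP, against 43.4, 53.7, 54.9 and 110 CPM with DMSO. In these genes TPhP replicates 2 to 4 stood on one side of every DMSO library, and TPhP replicate 1 lay among the DMSO libraries or next to them. The genes were picked by their likeness over the same 8 libraries, so this arrangement follows from the choice. The identifiers of these genes are not paired with names in the sources used here. For the same reason the other genes of the circadian clock, among them the targets and partners of Rev-erb receptors, were not analysed here.

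Among the genes that do have names, the mitochondrial *nd1*, *nd2*, *cox2* and *atp6* stood 50th, 51st, 57th and 116th in likeness to *nr1d4a*, of 15892 genes, and 134th, 124th, 108th and 145th in likeness to *nr1d4b*. The mitochondrial *nd3* stood 117th and 254th, and *cox1* stood 491st and 611th. The study chose these mitochondrial genes and the paralogs from the same contrast, so their high places follow in part from that choice. *Col2a1*, the cartilage and notochord collagen, ran opposite to both, at r = −0.930 with *nr1d4a* and −0.917 with *nr1d4b*. Counted from the most alike, it stood 15591st and 15623rd of 15892. TPhP replicate 1 had 81.4 CPM of *col2a1*, above every DMSO library at 30.6 to 73.0 CPM, whereas in CPM it was within the DMSO range for both paralogs. *Twist1*, a transcription factor of osteoblast progenitors, stood at r = −0.853 with *nr1d4a* and −0.793 with *nr1d4b*, and *sox9a*, a transcription factor of cartilage, at −0.582 and −0.626. By the same count *twist1* stood 14943rd and 14605th, and *sox9a* 12220th and 12887th. With *col1a*, *col10a*, *sp7* and *runx2*, genes of the osteoblast lineage, the values lay between −0.589 and −0.211. Such values were common. Counted from the most alike, these genes stood 9819th to 12298th of 15892 for *nr1d4a* and 8957th to 11608th for *nr1d4b*. In CPM, DMSO replicate 4 was the lowest DMSO library for *col1a*, *col10a*, *sp7* and *runx2*, as it was for both paralogs. This was also so for *twist1* and *rpl13a*. For *col2a1* (73.0 CPM) and *sox9a* (30.4 CPM) it was the highest DMSO library. Per 1000 counts of *rpl13a*, its 2.72 counts of *sp7* were above DMSO replicates 2 (2.30) and 3 (2.39). The share of all genes lowest in DMSO replicate 4 was not counted. All of these values rest on the same 8 libraries, of which TPhP replicates 2 to 4 stand apart.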

How the data were processed

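Per the labels and the methods of the study, poly(A) RNA was sequenced with a strand-keeping kit, STAR placed the trimmed reads on ASM223467v1 and htseq-count gave the counts per gene that the authors deposited, without normalization and from reads that mapped to 1 place only. No value column was left unused. All else was computed here. Counts were filtered (filterByExpr), scaled by TMM and fitted with edgeR 4.0.16 (quasi-likelihood test, R 4.3.3), treatment being the only factor. DESeq2, the tool of the authors, was run as an alternative in version 1.42.0. Log2 CPM use a prior count of 2. The standard error is the fold change over the root of its F statistic. The test was first tried on simulated counts with known changes, each of the same size in every TPhP library. The trial held no library that stood apart, so it does not show how the test handles TPhP replicate 1. Figures used matplotlib 3.10.9.

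The paralogs, lists and alternatives were chosen with earlier results of these data known. Named genes are both paralogs, those genes paired by the study with identifiers whose values bear on the paralogs, and the genes of most and least similar profile, at most 2 each way. The fixed circadian list could be paired with identifiers only for the paralogs, and of the other cell type markers only those of the axial skeleton could. The RefSeq table of ASM223467v1 holds neither paralog by name, so no position or sequence is given. Libraries are pools of larvae, and whether each pool came from its own dish is not given in the sources used here. For its sequencing the study describes both technical and biological replicates. Whether every library is a separate biological replicate is therefore not known, and the SDs and standard errors treat each as one. TPhP replicate 4 carries a title that ends in the number 3, and its number was read from the library name.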

Additional observations from a re-analysis of the deposited data

Results flagged for a closer look

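In 3 of 8 groups of 4 libraries, 1 library lay far from the rest of its treatment. In each it was TPhP replicate 1. Its gap in log2 CPM to the nearest other TPhP library, divided by the range over all TPhP libraries, was 0.894 for *nr1d4a*, 0.902 for *nr1d4b* and 0.963 for the mean of *nd1*, *nd2*, *cox2* and *atp6*, each above Dixon's 95% critical value for 4 samples. The gap was 0.559 for the ratio of the paralogs. Among the DMSO libraries the largest gaps were those of DMSO replicate 4, at 0.669 for *nr1d4a* and 0.733 for *nr1d4b*. The values come from the same libraries and are not separate events. The genes were chosen from these same libraries, so the count is a description and cannot be set against chance. What sets TPhP replicate 1 apart was not tested.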

How the results depend on the processing

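Both paralogs and the mitochondrial mean were lower with TPhP under every alternative run for them. Besides leaving out each library, 9 alternatives were run for each paralog and 6 for the mitochondrial mean. All these genes were chosen as lower in this same contrast, so the shared sign follows in part from that choice. With all 8 libraries, edgeR called 0 genes at the criteria of the study, against 2582 genes at an unadjusted p under 0.05, and DESeq2 called 618. Both tools thus called fewer genes than the study reports, and gave smaller differences for both paralogs than it lists. The reason was not tested. DESeq2 without TPhP replicate 1 called 2304 of 16487 genes tested, 1064 of them lower. It called 2 of the 2 paralogs, at log2 fold changes of −3.13 for *nr1d4a* and −2.18 for *nr1d4b*. Across the fits that each left out 1 library, the log2 fold change ran from −3.11 to −1.06 for *nr1d4a* and from −2.17 to −0.94 for *nr1d4b*. The mitochondrial difference ran from −8.69 to −6.13 and the difference in log2 paralog ratio from −0.97 to −0.52. The paralogs called ran from 0 to 2 and the genes called from 0 to 1712. Without TPhP replicate 1, 1712 of 16036 genes tested were called, 772 of them lower, and both paralogs. Without DMSO replicate 4, 4 genes were called. The cause was not tested. Taken from summed counts, the difference in log2 paralog ratio was −0.22, since TPhP replicate 1 holds 76.5% of the TPhP counts of *nr1d4a* and 60.7% of those of *nr1d4b*. With a replicate block the fold changes were −2.28 and −1.55, 0 genes were called, 2072 had an unadjusted p under 0.05, and the ratio difference stayed at −0.70 by arithmetic. The numbers share no stated source, and same-numbered libraries deviated together with correlations of 0.071, 0.21, 0.025 and −0.25, so they were not taken as pairs. Relative to *rpl13a*, an alternative chosen after seeing the data, the treatments' mean log2 ratios per library differed by −1.85 and −1.15. These are not edgeR's fitted fold changes and cannot be set directly against them. The nearer measure with TMM is the mean log2 CPM. It was 2.02 with TPhP and 4.24 with DMSO for *nr1d4a*, and 4.36 with TPhP and 5.89 with DMSO for *nr1d4b*. Scaling by library totals alone gave a median log2 fold change over the genes tested of 0.30, against 0.02 with TMM. The lowest count of either paralog was 110, and the part of sequencing depth was not tested.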
